A study of Homo sapiens with 6 samples.

Results

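The immediate early and ERK feedback genes described here are 10 protein-coding genes: the transcription factor genes EGR1, EGR2, EGR3 and MYC, the small response genes IER2 and IER3, and the phosphatase genes DUSP1, DUSP4, DUSP5 and DUSP6. They are 10 of the 19974 protein-coding genes on chromosomes 1 to 22 and X in the RefSeq annotation of GRCh38. Their ATAC-seq peaks were taken by position alone, as every listed peak inside a member gene or within 100 kb of it, and 134 of the 80149 peaks in 3 lists met this rule. The lists come from Nthy-ORI, an immortalised line of normal human thyroid follicular epithelium, in which Tn5 transposase marked open DNA in nuclei of 50000 cells. All cells were first kept for 24 h in phenol red-free medium with charcoal-stripped serum, and then received 10 nM T3, the active thyroid hormone, for 24 h, 10 nM T3 for 6 h, or NaOH vehicle, labelled 6 h. Each of these 3 groups had 2 samples, whose reproducible peaks form 1 list per group. Whether these came from separate cultures is not stated in the labels.

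Immediate early genes are transcribed within minutes of growth factor signalling, before any new protein is made. In this pathway receptor tyrosine kinases act through RAS, RAF and MEK on the kinase ERK, which phosphorylates ETS-family cofactors of serum response factor (SRF), a protein that binds the CArG box in promoters such as that of EGR1. EGR1, EGR2 and EGR3 are zinc finger factors of the same family, and MYC is a factor of growth and proliferation. The DUSP proteins close the loop, since they remove phosphate from MAP kinases: DUSP6 acts on ERK in the cytoplasm, DUSP5 on ERK in the nucleus, and DUSP1 and DUSP4 are nuclear with wider substrates. In thyroid follicular cells this cascade is known as the main route of oncogenic signalling.

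The sequences before the annotated starts of EGR1, DUSP1 and DUSP6 are shown because the 24 h peak covered each of these starts and the whole promoter window. The IER2 start was covered too, but 181 of the 300 bp of its window were, and its sequence is not shown because a boundary of STX10 lies in it. A shorter one belongs to the inner start of EGR2. RefSeq promoter windows, which hold 250 bases before and 50 after a start, were found for EGR1, EGR2, IER2, DUSP1 and DUSP6, with 7 windows in all. Each run below is the stretch before the start on the gene's strand (GRCh38.p14, 5′ to 3′), chr5:138465229-138465478 on the plus strand for EGR1, chr5:172771196-172771445 on the minus strand for DUSP1 and chr12:89352502-89352751 on the minus strand for DUSP6. For EGR2 it is the 30 bases at chr10:62816416-62816445 on the minus strand. Capitals mark the CArG box, the cyclic AMP response element TGACGTCA and its short form TGACG, the E-box CACGTG and the TATA box TATAAA, on either strand, so that CGTCA is TGACG read from the other strand.
EGR1: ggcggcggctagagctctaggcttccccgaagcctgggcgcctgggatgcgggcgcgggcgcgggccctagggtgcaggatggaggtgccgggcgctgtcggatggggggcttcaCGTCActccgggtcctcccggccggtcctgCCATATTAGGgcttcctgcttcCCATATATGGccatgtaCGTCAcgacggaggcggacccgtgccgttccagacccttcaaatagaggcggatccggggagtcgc
EGR2: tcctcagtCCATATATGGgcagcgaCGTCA
DUSP1: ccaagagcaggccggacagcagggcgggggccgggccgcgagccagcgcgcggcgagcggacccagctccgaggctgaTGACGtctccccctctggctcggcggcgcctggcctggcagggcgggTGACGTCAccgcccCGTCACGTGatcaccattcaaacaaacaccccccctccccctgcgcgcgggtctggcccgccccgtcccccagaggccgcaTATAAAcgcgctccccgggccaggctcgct
DUSP6: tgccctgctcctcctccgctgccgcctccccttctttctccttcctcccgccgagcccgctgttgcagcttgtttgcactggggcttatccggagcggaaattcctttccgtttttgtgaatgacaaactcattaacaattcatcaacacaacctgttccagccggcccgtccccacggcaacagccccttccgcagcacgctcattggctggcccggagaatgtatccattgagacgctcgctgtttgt

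The EGR1 window held 2 CArG boxes, which begin 105 and 83 bases before the start, and the inner EGR2 window held 1. Of 22140 promoter windows of protein-coding genes, cut to the same 250 bases, 1.18% held a CArG box. The other 5 windows of these genes, among them the outer starts of EGR2, held none. DUSP1 had the full element TGACGTCA, present in 2.01% of windows, TGACG at 4 places of which 2 form that element, an E-box (7.37% of windows) that overlaps another TGACG, and a TATA box (9.0%). It had no ETS core GGAA, which 92.5% of windows hold, whereas DUSP6 had GGAA at 6 places and none of the capital-letter motifs. The AP-1 site TGANTCA (5.36% of windows) and the thyroid hormone receptor core AGGTCA (10.5%) were in none of the 7 windows. These matches describe letters in a short window, and binding was not measured.

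The lists differed in length and in the agreement of their replicates: the 24 h list held 60661 peaks, the 6 h list 12385 and the vehicle list 7103. Replicate summits lay a median of 46 bp apart at 24 h, 222 bp at 6 h and 180 bp in vehicle, and read depth is unknown. In such bulk samples, more cells with an open site and a more open site per cell cannot be told apart. A region missing from a list is therefore not shown to be closed, and signals are given only as values and ranks within a list. No test between groups was made, since each list holds only the peaks called in its own group and the normalisation of its signals is not stated. Since no vehicle list at 24 h was analysed here, T3 and time in culture cannot be told apart at 24 h. Of 11 thyroid epithelial marker genes, 8 had a 24 h peak at a gene end, 2 a 6 h peak and 0 a vehicle peak. Over all protein-coding genes the shares were 60.8%, 10.8% and 1.34%, and KRT8 and KRT18 were counted from the same 24 h peak. Thyroglobulin, thyroid peroxidase and the iodide transporter gene SLC5A5 had none in any list.

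At 24 h of T3, 8 of these 10 genes carried a gene-end peak, defined by a position (the mean of the replicate summits) within 1 kb of either gene boundary. At 6 h of T3 2 had one, EGR1 and DUSP6, and in vehicle 0 had one. Over all protein-coding genes 60.8% had a gene-end peak at 24 h, 10.8% at 6 h and 1.34% in vehicle, and no count of the members is read as particular to them. A counterpart is a peak of another list that overlaps by at least 50% of the shorter peak. Since 0 had one in vehicle, the 8 genes at 24 h and 2 at 6 h almost necessarily had a gene-end peak with no vehicle counterpart. The same was true of 59.8% of all genes for T3 24 h against vehicle and of 10.3% for T3 6 h against vehicle. For T3 24 h against T3 6 h, 6 members had a gene-end peak with no 6 h counterpart (IER2, IER3, DUSP1, DUSP4, DUSP5 and MYC), against 51.3% of all genes. When each list was limited to its 7103 strongest peaks, 0 members had a gene-end peak at 24 h and 1, DUSP6, at 6 h, against 16.6% and 6.26% of all genes.

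**Figure D1:**
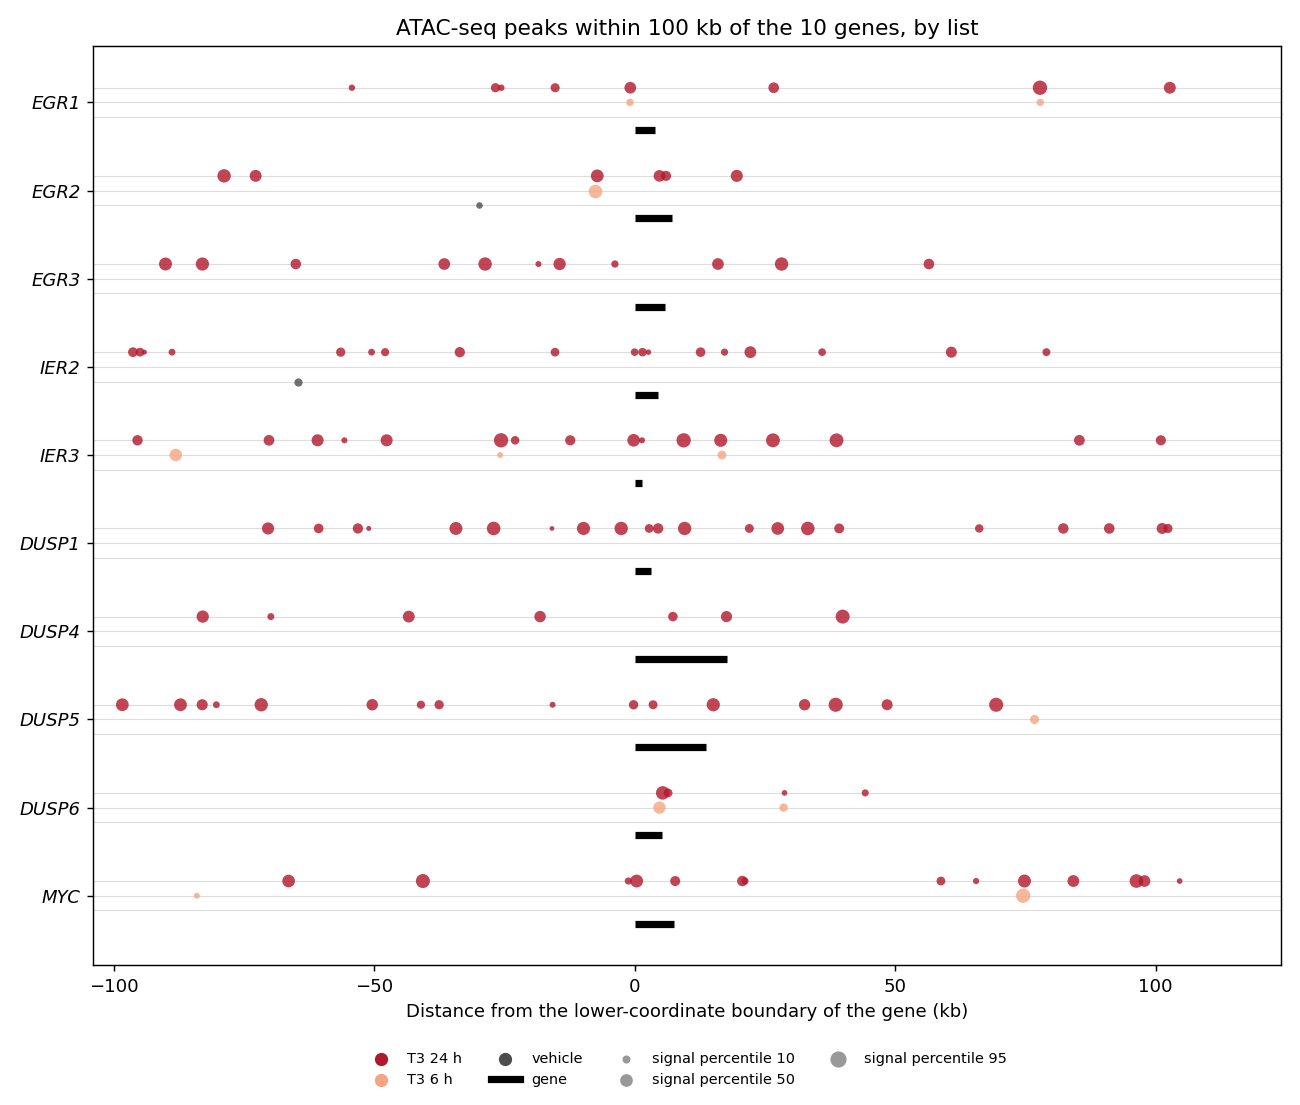
Positions of the peaks within 100 kb of each of the 10 genes, in kb from the gene's lower-coordinate boundary, with the T3 24 h list above T3 6 h and vehicle; dot area grows with the signal percentile within the list and the black bar is the gene. The 24 h rows hold 121 peaks, the 6 h rows 11 and the vehicle rows 2.

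EGR1 encodes the best known immediate early factor of this group and was 1 of the 2 members with a gene-end peak at both treatment times. Its 24 h peak, at chr5:138463904-138465645 (hg38), had a signal of 14.3, with 6.75 in the first and 7.52 in the second replicate column, and stood at percentile 60.3 of its list. The 6 h peak, at chr5:138464103-138465250, lay wholly within it and had a signal of 9.18, with 3.86 and 5.32 in the replicate columns, at percentile 18.8. The 24 h peak covered the annotated start and all 300 bp of the promoter window, the 6 h peak 22 bp of it. In neither list did a replicate place its summit in the window: the summits lay 458 and 1272 bp before the start at 24 h, and 783 and 1048 bp before it at 6 h. The position passed the 1 kb limit through the mean of these summits, at 865 and 915.5 bp from the boundary.

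DUSP6, a feedback gene of ERK, had the strongest gene-end peak of the members by summed signal at 24 h. This peak, at chr12:89351604-89352967, had a signal of 21.2, with 9.64 and 11.6 in the replicate columns, and stood at percentile 83.6. Both replicates placed the summit at the same base, 94 bp before the annotated start and thus inside the sequence printed above. At 6 h the peak at chr12:89351647-89352928 had a signal of 10.96, with 5.15 and 5.81, at percentile 67.7. It covered the start too, but its summits lay 632 and 432 bp inside the gene. The gene also lies within the longer readthrough gene POC1B-DUSP6, so its peaks can be counted for either.

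The other phosphatase genes were listed at a gene end at 24 h alone. DUSP1, which acts on several MAP kinases, had a peak of signal 10.1 (4.92 and 5.22 by replicate column) at chr5:172770474-172771549, at percentile 29.5, with summits 239 and 441 bp inside the gene. The peak covered the annotated start and the whole promoter window with its TATA box. DUSP4 had a peak of signal 13.2 (6.10 and 7.05) at chr8:29349598-29351413, at percentile 54.2, whose replicate summits lay 3 bp apart. The DUSP5 peak at chr10:110497381-110498870 had a signal of 10.6 (5.48 and 5.15), at percentile 34.9, with summits 377 bp apart. Between the replicate columns the percentiles of these 3 peaks differed by 2.68 at DUSP1, 4.73 at DUSP4 and 10.5 at DUSP5, while the DUSP1 summits lay 202 bp apart.

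IER2 and IER3 encode short-lived response proteins, and IER3 is known to act on cell survival downstream of ERK. Taking the strongest gene-end peak of each gene, that of IER2 ranked lowest of the 8, with a signal of 9.34 (4.79 and 4.55) at chr19:13150280-13150676 and percentile 19.7. Its summits lay 43 and 18 bp before the IER2 start, and the peak position lay 5.5 bp from a boundary of the neighbouring gene STX10, so that it cannot be given to one gene. Of the 8 genes only IER3 and MYC had a peak at both ends. At IER3 the lower-coordinate end, chr6:30742737-30743384, had a signal of 16.9 (8.02 and 8.92) and percentile 71.5, and the other end, chr6:30744124-30744836, a signal of 8.52 (3.90 and 4.61) and percentile 8.89. The stronger of these lay inside the antisense gene IER3-AS1 and within 1 kb of a boundary of FLOT1.

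Among the strongest gene-end peaks at 24 h, that of MYC differed most in rank between the replicates. Its 24 h peak at chr8:127735183-127736371 had a summed signal of 17.8, made up of 12.1 in the first replicate column and 5.70 in the second. These values ranked at percentile 92.3 of the first column and 39.3 of the second, and the summits lay 883 bp apart. A weaker peak of signal 11.3 (5.98 and 5.35) stood at the higher-coordinate end, with summits 33 bp apart. No 6 h or vehicle peak lay within 1 kb of a MYC boundary.

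EGR2 and EGR3 were the members with no gene-end peak in any list. EGR2, a factor known from hindbrain and myelinating cells, nevertheless had 2 peaks inside the gene at 24 h. The stronger, at chr10:62816364-62816976 with a signal of 14.2 (6.68 and 7.51) at percentile 59.9, covered the inner annotated start at position 62816366 and 253 of the 300 bp of its promoter window. Its summits lay 400 and 349 bp before that start. The other, at chr10:62817792-62818379, had a signal of 11.4 (6.49 and 4.94). The inner start is the one whose window holds the CArG box, and no listed peak overlapped the windows of the outer EGR2 starts. The peak nearest to EGR3 lay 3820 bp outside the gene, with a signal of 9.16 and summits 872 bp apart.

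Counted by annotated starts in place of gene boundaries, all 5 members with a promoter window had one overlapped by a 24 h peak, 2 by a 6 h peak (EGR1 and DUSP6) and 0 by a vehicle peak. Over the 15813 protein-coding genes with such a window the shares were 62.9% at 24 h, 11.5% at 6 h and 1.22% in vehicle. Across all overlapped windows the summit lay a median of 130 bp from the start at 24 h, as the mean of both replicates. Of the 5 members, DUSP6 and IER2 had summits closer than this in both replicates, and EGR1, EGR2 and DUSP1 had theirs farther off.

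**Figure D2:**
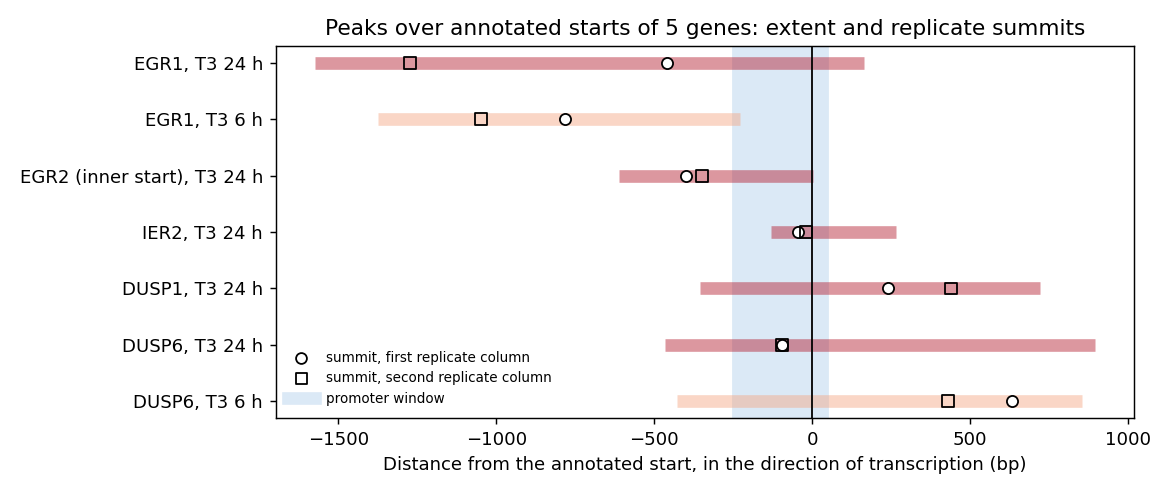
Extent of each peak that overlaps a promoter window (bars, coloured by list) and the summit in each replicate column (circle and square), in bp from the annotated start in the direction of transcription; the shaded band is the window of 250 bp before to 50 bp after the start. At 24 h the DUSP6 summits coincide 94 bp before the start, and the EGR1 summits lie 458 and 1272 bp before it.

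At 24 h most gene-end peaks of these genes ranked below the median of such peaks. The strongest was taken per gene, and those of IER2 and IER3 also lie near STX10 and FLOT1. The 8 members had a median percentile of 57.3 by summed signal, against 75.7 (quartiles 54.7 and 89.4) over the 12137 genes with a gene-end peak. Of the 8 members, 7 lay below the median of all these genes. The exception was DUSP6, and MYC lay closest below it at percentile 74.2. In the first replicate column the medians were 54.9 for the members and 75.03 for all genes, and in the second 47.3 and 74.8. At 6 h the 2 members had percentiles of 18.8 and 67.7, on either side of the median of 49.7 over 2162 genes. Read depth is unknown. Peak width differs between peaks, and its part in these ranks was not tested. The members' gene-end peaks at 24 h had a median width of 1133 bp, against 935 bp for all gene-end peaks of that list.

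**Figure D3:**
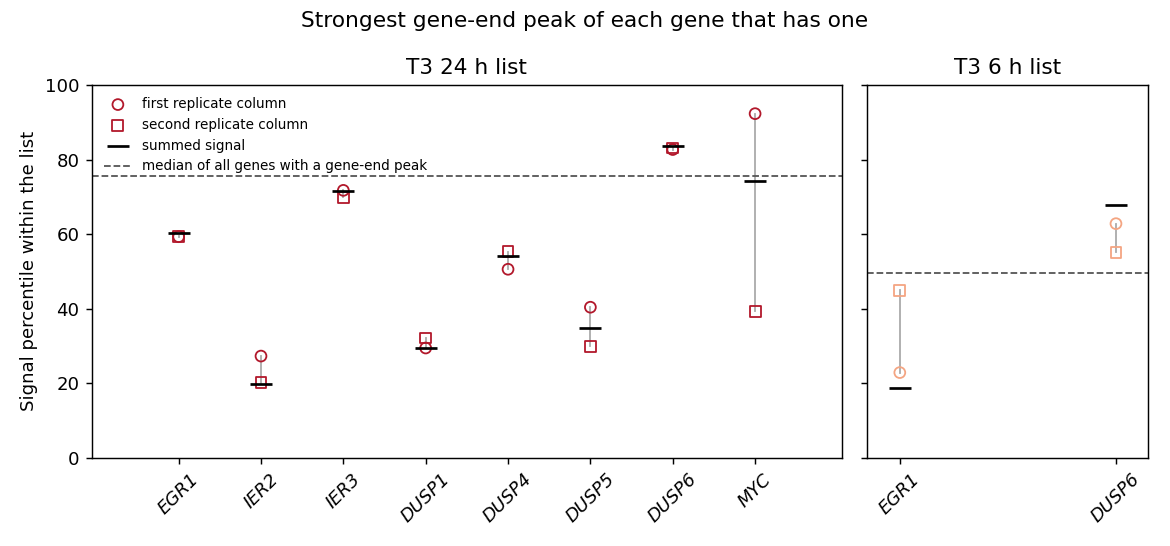
Signal percentile within the list of the strongest gene-end peak of each member that has one, at T3 24 h (left) and T3 6 h (right), by the first and second replicate column (circle, square) and by summed signal (black dash); the dashed line is the median over all genes with a gene-end peak. At 24 h 7 of 8 members lie below the line of 75.7 by summed signal, and the MYC replicates lie at 92.3 and 39.3.

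Several of the genes stood in peak-rich neighbourhoods at 24 h, with the peaks at their own ends and inside them counted too. Within 100 kb, the 10 genes had a median of 12.5 peaks, from 4 at DUSP6 to 21 at DUSP1, against a median of 8 (quartiles 5 and 12) over all protein-coding genes. DUSP1 with 21 peaks exceeded 98.1% of all genes, IER2 with 18 exceeded 95.5%, IER3 and DUSP5 with 16 each exceeded 91.7%, and MYC with 14 exceeded 84.9%. EGR3 had 11, EGR1 8, DUSP4 7 and EGR2 6. DUSP6, which had the best ranked gene-end peak, had fewer neighbours than most genes: 14.7% of genes had under 4 peaks. All 10 genes had at least 1 peak at 24 h, 6 at 6 h and 2 in vehicle, against 97.6%, 66.8% and 33.1% of all genes. The higher counts at 24 h did not hold in the 7103 strongest peaks by summed signal. There the 10 genes together had 8 peaks, against a median of 1 per gene over all protein-coding genes.

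**Figure D4:**
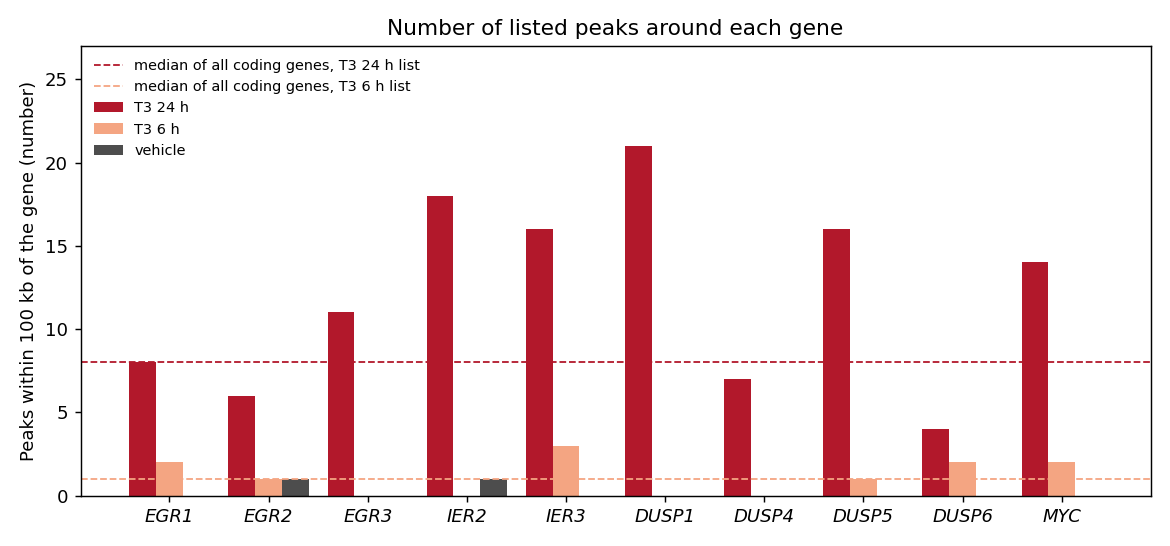
Number of listed peaks within 100 kb of each gene, in the T3 24 h, T3 6 h and vehicle lists (bars); dashed lines show the median over all protein-coding genes, 8 at 24 h and 1 at 6 h. DUSP1 has 21 peaks in the 24 h list and 0 in the other lists.

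Of the 121 peaks at 24 h, 10 lay at a member's ends, 6 inside a member and 105 outside. Among the latter, 18 lay within 1 kb of a boundary of another protein-coding gene, such as ETF1 beside EGR1, MDC1 beside IER3 and SMC3 beside DUSP5. The member was the nearest protein-coding gene for 61 of the 121. This share differed by locus, from all 14 peaks at MYC and 13 of 16 at DUSP5 to 1 of 11 at EGR3 and 1 of 8 at EGR1. Of the 24 h peaks above MYC, 6 lay in PVT1, a long non-coding RNA gene, and the strongest of those, 88817 bp from MYC, had a signal of 22.1 (12.3 and 9.82) with summits 4 bp apart.

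Peaks were assigned to the nearest protein-coding gene, and 6 members had them both at their ends and farther away. Of these members, 5 had the stronger one away from the end, against 47.6% of 6662 genes. This share was not adjusted for the number of peaks assigned to a gene, and more peaks give more chances of a strong one. MYC had 14 assigned peaks, DUSP5 13, DUSP1 11, IER3 6, DUSP4 4 and DUSP6 3. The median over all protein-coding genes was 2, but these include genes that lack a gene-end peak or a distant one. The median over the 6662 genes, which have both, is not given here. At IER3 the peak 8036 bp above the gene had a signal of 28.7 (13.5 and 15.2), at percentile 94.8. At DUSP5 the peak 24954 bp above the gene had 26.3 (13.0 and 13.3), at percentile 92.1, and its summits lay 24 bp apart. At DUSP4 the peak 22296 bp above the gene had 24.9 (11.1 and 13.7), with summits 808 bp apart. At DUSP1 the peak 27108 bp below the gene had 21.7 (11.7 and 9.94). In these 4 genes the distant peak was the higher one in both replicate columns.

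At MYC the peak 40692 bp below the gene had 25.4 (11.7 and 13.8), and it exceeded the gene-end peak in the second column only. Its summits lay 679 bp apart. DUSP6 showed the converse order, with 10.1 (5.99 and 4.11) for the peak 1129 bp above the gene and 21.2 at the gene end. Of the 121 peaks, 7 (5.79%) belonged to the strongest 10% of the list, at EGR1, IER3, DUSP4, DUSP5 and MYC, and 0 of these 7 lay at a member's own end. Of these, 3 lay at the end of another gene, ETF1, MDC1 or SMC3, and the ETF1 peak was the only one of the 7 near EGR1. The median percentile of the 121 peaks was 48.0.

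**Figure D5:**
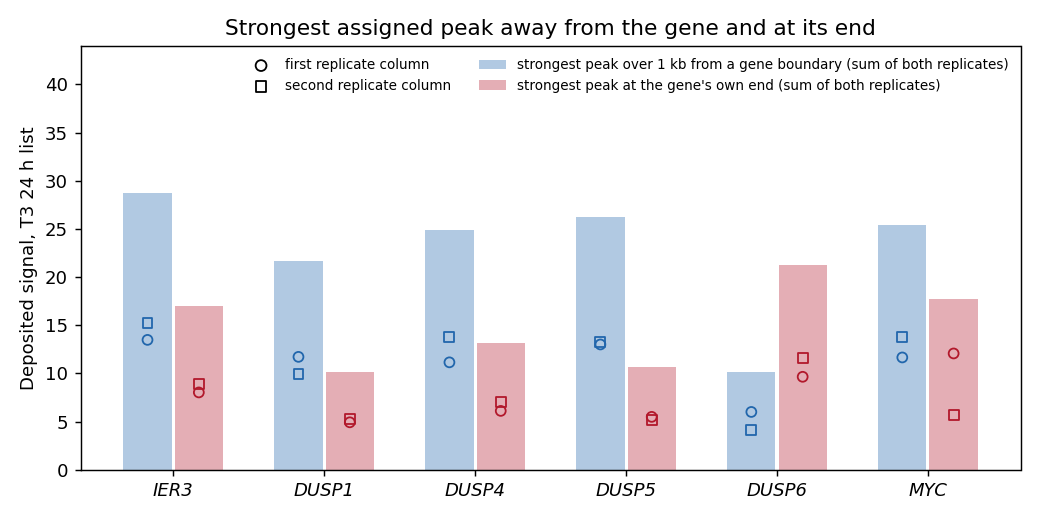
Deposited signal in the T3 24 h list of the strongest peak over 1 kb from the gene's boundaries (blue) and at its own end (red), among peaks for which the member is the nearest protein-coding gene, for the 6 members with both; bars are the sum of both replicates, circles and squares the replicate columns. The blue bar is higher in 5 of 6 genes, and DUSP6 has 10.1 away from and 21.2 at its end.

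At 6 h there were 11 peaks within 100 kb of the members, and 8 of them (72.7%, exact Clopper-Pearson 95% interval 39.0 to 94.0 for counting error only) were shared with the 24 h list. Of all 6 h peaks 49.3% were shared. Besides the ends of EGR1 and DUSP6, the shared peaks were those at ETF1 near EGR1, at ADO near EGR2, at MDC1 and 15389 bp above IER3, 23312 bp above DUSP6, and in PVT1 67071 bp above MYC. The PVT1 peak was the highest in rank of the 11, with a signal of 15.5 (6.34 and 9.14) at percentile 94.7 of the 6 h list and 18.3 (7.90 and 10.4) at percentile 76.0 of the 24 h list. The ADO peak followed, at percentile 85.4 with a signal of 12.5 (6.22 and 6.27). The 6 h replicates placed the summits of the PVT1 peak 629 bp apart and those of the ADO peak 187 bp apart, against 119 and 5 bp at 24 h. The 3 peaks found at 6 h and not at 24 h lay 88156 bp below IER3, 62956 bp above DUSP5 and 84101 bp below MYC.

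The vehicle list held 2 peaks near the members, and 0 of these 2 were shared with either T3 list, where 33.6% of all vehicle peaks were shared with the 24 h list and 33.2% with the 6 h list. With 2 peaks the exact Clopper-Pearson 95% interval reaches 84.2%. One lay 29886 bp below EGR2, at chr10:62781794-62782535, with a signal of 8.69 (5.41 and 3.28) at percentile 12.1. The other lay inside NFIX, 64589 bp below IER2, at chr19:13085479-13086622, with a signal of 9.04 (4.26 and 4.78) at percentile 24.7. Their replicate summits lay 473 and 148 bp apart. Conversely, 0 of the 121 peaks at 24 h and 0 of the 11 at 6 h were shared with vehicle, where 4.05% and 19.2% of the whole lists were. With only 2 vehicle peaks near the members, few could have been shared, so these counts largely restate the 0 of 2.

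Other genes of the pathway were described by the same gene-end rule. Of 21 further ERK feedback genes, 19 had a gene-end peak at 24 h, 2 at 6 h and 0 in vehicle. The median percentile of the strongest peak per gene at 24 h was 81.1, against 57.3 for the members. ETV1 and ETV5, ETS-family factors induced by ERK, stood at percentiles 97.5 and 97.3, and SPRY1, a Sprouty inhibitor of receptor signalling, at 96.3. Their replicate summits lay 851, 1 and 140 bp apart. At 6 h the genes listed were PHLDA1 (percentile 49.4) and SPRY4, another Sprouty gene (22.5). Among 25 further immediate early genes 18 had a 24 h gene-end peak, 3 a 6 h peak and 0 a vehicle peak, with a median percentile of 66.6 at 24 h. IER5, BTG1 and JUN led at 24 h, at percentiles 95.01, 90.8 and 90.3, with replicate summits 84, 23 and 1029 bp apart. At 6 h SRF, the CArG-binding factor itself, stood at percentile 60.6, and TNFAIP3 and IER5 at 1.86 and 0.961.

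The kinase cascade above the members was listed at 24 h in 17 of 20 genes, at 6 h in 3 and in vehicle in 0. MAPK7, which encodes the kinase ERK5, stood at percentile 92.5 at 24 h, with a peak at chr17:19377607-19378524. Its strongest 6 h gene-end peak, at percentile 66.4, was a different one at chr17:19383893-19385368 that did not overlap the first. Only the strongest peak per list was compared, and a weaker 24 h peak at the 6 h position was not looked for. The 6 h replicate summits were separated by 605 bp. Of 17 factor genes whose products work with the members, such as ETS-family cofactors of SRF, the EGR corepressors NAB1 and NAB2 and the MYC partner MAX, 16 had a 24 h peak, 3 a 6 h peak and 0 a vehicle peak. MRTFA, a cofactor of SRF, ELK4, an ETS-family cofactor, and MXD1, a MAX-binding antagonist of MYC, were the 3 listed at 6 h, at percentiles 88.7, 28.1 and 14.3. At 24 h ELK4, MXD1 and MRTFA stood at percentiles 96.4, 96.1 and 86.9, with replicate summits 706, 107 and 45 bp apart. The background for these counts is that given above for gene-end peaks, 60.8% of genes at 24 h and 10.8% at 6 h, and the differences between the gene groups were not tested.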

How the data were processed

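ATAC-seq was done in 6 samples, 2 in each of 3 groups. Reads were handled with Bowtie2, MACS2, DiffBind, Trim Galore and CASAVA 1.7 on hg38, per the submitters' processing notes. Not given in the sources used here are settings, Tn5 shifting, duplicates and blacklists. The authors deposited 1 list per group, whose 20 columns follow the IDR method (irreproducible discovery rate). The deposited signal is the sum of 2 replicate signals of unstated normalisation, and the replicate columns carry no sample name. The deposited score is the scaled IDR (540 to 1000). The deposited −log10 of the IDR gives an IDR of at most 0.05 for every peak. Because the authors' lists hold no counts, depth is unknown.

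Peaks were handled with pandas 2.3.3, scipy 1.17.1 and numpy 2.4.6 under Python 3.11.15. Percentiles are ranks within a list. Gene boundaries and promoter windows are from RefSeq GRCh38.p14, the assembly of hg38. The overlap code gave the count of bedtools 2.31.1, and on simulated data the gene-end rule found 100% of 200 planted peaks. All members are named; of 4 other gene lists, up to 3 genes each with the highest percentile at 6 h and at 24 h, apart from some genes of the kinase cascade list that are not reported here. Members and lists were chosen with earlier results of these data known. No test across groups was made, since the lists hold different peaks and the signals have no stated common scale.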

Additional observations from a re-analysis of the deposited data

How the results depend on the processing

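Of 75 values under alternative settings for 9 counts, 38 lay within 1.5 times the count reported and 37 did not. No member had a vehicle gene-end peak under any of the 8 settings run. Only a window of 2 kb and an overlap of the whole peak with the window could have added one. The other settings keep or shorten the vehicle list or the window, so their 0 was fixed in advance and counts among the 38. With lists of equal length (7103 peaks) the members with a 24 h gene-end peak, all of them and those without a vehicle or a 6 h counterpart alike, numbered 0 by summed signal, 0 by the second replicate column and 1 (MYC) by the first. At 6 h the members numbered 1, 2 and 1, with DUSP6 in each, against 6.26%, 5.47% and 6.94% of all genes. With replicate summits at most 100 bp apart, 5 members had a 24 h gene-end peak, all absent from vehicle, and 0 a 6 h peak. The shares of all genes fell as well, to 43.5% at 24 h and 3.14% at 6 h. With an IDR of at most 0.01 the 6 h count was 1, against 3.59% of all genes. A gene-end window of 500 bp gave 0, against 8.79%. Both counts hold against vehicle too. The 121 peaks near the members at 24 h became 12, 8 and 8 in lists of equal length (first column, second column, sum), 72 within 50 kb and 61 by nearest gene. The median per gene over all protein-coding genes went from 8 to 1 in each list of equal length, 5 within 50 kb and 2 by nearest gene. The 11 at 6 h became 7, 6 and 4, then 6 and 6, and 3 with an IDR of at most 0.01 or close summits. The 2 in vehicle became 1 within 50 kb and 0 by nearest gene, strict IDR or close summits. No paired analysis was possible because the replicate columns carry no number. Leaving out a replicate was not run, as no list per replicate was analysed here, and ranking by 1 column stands in for it.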
